A study of Mus musculus with 2 samples.

Results

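The efflux transporters of haematopoietic stem cells, which renew themselves and produce every kind of blood cell, were examined in mice with and without Wip1. The genes were 10 ABC transporters that move drugs, dyes and sterols across membranes, namely Abcb1a, Abcb1b, Abcg2, Abcc1, Abcc3, Abcc4, Abcc5, Abca1, Abca3 and Abcg1. Every probe set whose only gene in the platform annotation was one of these was taken, which gave 27 of the 45037 probe sets on the array and 10 of its 18193 named genes. No probe set that was assigned to several genes named any of them.

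The data were 2 Affymetrix expression arrays, 1 for stem cells of Wip1 knockout mice and 1 for stem cells of wild-type mice, both at an age of 3 months. Wip1 is the phosphatase made from Ppm1d and is known as a brake on p53 and on the kinases of the DNA damage response. The labels name the genotypes only as Wip1 knock-out and wild type. The labels do not name the strain, the sex, the number of animals pooled or the sorting gate. With 1 array per genotype there was no replicate error and no test across samples, so each difference compares these samples and cannot separate genotype from other differences between them. In such bulk RNA, fewer cells of a type and less RNA per cell cannot be told apart.

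ABC transporters are membrane pumps that use ATP to carry substrates out of the cytoplasm or from one membrane leaflet to the other. In blood-forming tissue they are known for the side population, the cells that pump out the dye Hoechst and appear dim by flow cytometry. Abcg2 is the main pump of that dye, and the P-glycoproteins Abcb1a and Abcb1b export rhodamine dye and many drugs. Abca1 and Abcg1 export cholesterol to lipoproteins and are known to restrain the proliferation of stem and progenitor cells.

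Several facts about the arrays bear on all values. The floor was the median intensity of each array (25.9 in the knockout and 25.2 in the wild type), and a gene or probe set is called detected here when it lay above the floor on at least 1 array. The list of stem cell markers also holds progenitor genes such as Flt3. Of this list, all 18 with a probe set were detected, 17 of them above the floor on both arrays. So were all 10 neutrophil markers on both arrays, and 8 of 8 B cell markers and 9 of 12 megakaryocyte and platelet markers were detected, so being above the floor does not by itself identify the cells. Counts of higher and lower genes are given as deposited, while log2 differences are centred and their sign can turn for differences under 0.01. The 2 probe sets of Ppm1d differed by -0.05 and 0.10 on the log2 scale, and their position relative to the deleted part is not given, so they check nothing about the genotype. Transcripts of the sex chromosomes differed between the samples, with Xist at 3778 in the knockout against 6228 in the wild type and the Y-linked Eif2s3y at 149 against 31.8 and Kdm5d at 65.2 against 8.92, the last under the floor. The part of this difference in any result below was not tested.

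In wild-type stem cells, the sterol exporter Abcg1 had the brightest probe set of the group, with an intensity of 756. It was followed by Abcc1 at 541, Abcg2 at 359, Abcc4 at 274, Abca3 at 181, Abcc5 at 140, Abca1 at 111 and Abcb1b at 92.6. Abcb1a at 16.7 and Abcc3 at 14.9 lay under the floor, so 8 of the 10 genes were detected. The proteins behind the top of this order are a cholesterol exporter, a pump of glutathione conjugates and the Hoechst pump.

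Probe sets bind with different efficiency, so this is an order of intensities and not of transcript numbers. The spread within a gene shows how much that matters. The 5 detected probe sets of Abcc5, all for the same gene, ran from 60.8 to 140 in the wild type, a 2.31-fold range, with 5 more under the floor, while neighbouring detected genes in the order differed by 1.20- to 1.52-fold. The 2 probe sets of Abcg1 were 8.24-fold apart (756 and 91.8) and those of Abcc1 4.80-fold apart (541 and 113). With no replicate array, none of the neighbouring detected genes could be shown to differ. On the knockout array Abca3 (236) passed Abcc4 (230.4), and Abca1 (185) passed Abcc5 (135), while Abcg1, Abcc1, Abcg2 and Abcb1b kept their places. The step from Abcb1b down to Abcb1a crosses the floor, so it has only a bound, at least 3.67-fold in the wild type and at least 3.74-fold in the knockout.

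**Figure D1:**
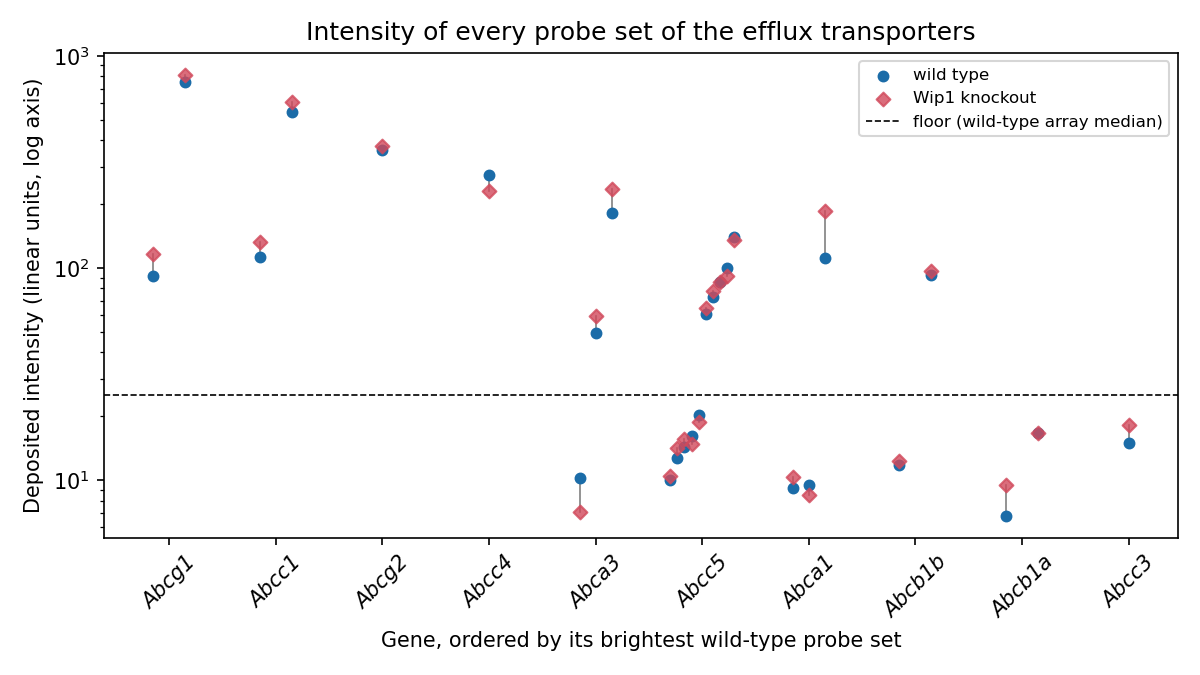
Deposited intensity (log axis) of each of the 27 probe sets of the 10 transporters in wild-type (circles) and Wip1 knockout (diamonds) stem cells, with 1 array per genotype and no error bars; genes run from the brightest to the dimmest wild-type probe set, and the dashed line is the wild-type floor of 25.2. Probe sets of a single gene spread far more than the arrays differ, and both Abcb1a probe sets and the Abcc3 probe set lie under the floor.

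In the knockout, none of the 8 detected transporters differed by 2-fold, and Abca1 was the only one past 1.5-fold, higher by 0.74 on the log2 scale. Among all 11440 detected genes, 0.455% were past 2-fold in the upward direction and 0.21% in the downward direction, together 0.664%. At 1.5-fold the shares were 2.28% higher and 1.57% lower, together 3.85%, and 1 of 8 is too small a count to set apart from that share. Of the 8 genes 6 were higher and 2 lower, with a median of 0.10. Over all detected genes the median was -0.0031, with 5207 higher, 5962 lower and 271 equal as deposited and 49.4% higher after centring. As a scale serves the pooled SD of the log2 differences of detected probe sets around their gene's mean difference, 0.22 over 5084 genes. It is not a spread of intensities and holds no variation between animals or arrays. Of the transporters, 5 differed by less than that SD, as did 66.4% of all detected genes. The members and the fold sizes were chosen with earlier results of these data known, and the counts are a description.

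Abca1 hands cholesterol and phospholipid to apolipoprotein A-I, the first step of reverse cholesterol transport. Its brightest probe set read 185 in the knockout and 111 in the wild type, a 1.68-fold difference. Its other 2 probe sets lay under the floor on both arrays, at 8.52 against 9.48 and at 10.3 against 9.16, and so carry no information on the change. The difference thus rested on a single probe set. A difference at least as large in either direction was found in 225 of the detected genes (1.97%), and 132 genes were higher by more. Among the 3813 detected genes in the middle range of mean intensity (90.5 to 279), where Abca1 lies, 2.31% were at least 1.5-fold higher.

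Abcg1 works after Abca1 and loads cholesterol onto mature high-density lipoprotein. Its bright probe set read 811 in the knockout and 756 in the wild type, and its dimmer probe set 116 against 91.8. Both were higher in the knockout, by 0.11 and 0.35, and the first is within the SD between probe sets. Abca3, a phospholipid transporter best known from the lamellar bodies of the lung, was higher in both detected probe sets. They read 236 against 181 and 59.6 against 49.2, with log2 differences of 0.40 and 0.29. The remaining probe set lay under the floor and went the other way as deposited, at 7.07 against 10.3. The log2 difference of Abca3 was matched or exceeded in size by 10.5% of detected genes.

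The upstream sequence of Abca1 is shown because it was the transporter that differed most. The stretch ends before the first base of any transcript of the gene in the RefSeq table (GRCm38.p6, chr4:53159989-53160145, minus strand, 157 bases). Capitals mark matches, on either strand, to the E-box CACGTG, the GC box GGGCGG or the CCAAT box.
Abca1: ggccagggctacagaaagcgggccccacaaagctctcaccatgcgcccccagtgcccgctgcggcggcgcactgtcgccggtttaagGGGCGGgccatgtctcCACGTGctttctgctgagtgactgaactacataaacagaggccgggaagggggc
It holds 1 E-box and 1 GC box and no CCAAT box. Of all 32851 RefSeq promoter windows, trimmed to the same length, 3.06% held CACGTG, 17.6% GGGCGG and 21.0% CCAAT. These letters describe the sequence and do not show binding, and no binding data belong to this series.

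The multidrug pumps of the B and G families differed little. Abcg2, the Hoechst dye and porphyrin exporter that defines the side population, read 377 in the knockout and 359 in the wild type by its only probe set. Its log2 difference of 0.08 was matched or exceeded in size by 70.8% of detected genes. Abcb1b read 96.7 against 92.6, a difference of 0.07, while its second probe set lay under the floor at 12.4 against 11.8. Both dye pumps that were detected thus read within 1.06-fold of the wild type.

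Abcb1a lay under the floor in both probe sets. The first read 16.7 on each array, to the last digit, and the second read 9.50 in the knockout against 6.78 in the wild type. No difference is given for it. The 2 P-glycoprotein genes of the mouse are near copies whose products share the work of the single human gene, so probe sets for them can share sequence. The only detected probe set of the pair was 1 of the 2 assigned to Abcb1b.

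The upstream sequences of this pair are shown because of that split between a gene above the floor and a near copy under it. Each is 250 bases long and ends at the base before the gene in RefSeq (GRCm38.p6, plus strand, chr5:8566841-8567090 for Abcb1a and chr5:8797897-8798146 for Abcb1b). Capitals mark the same motifs as for Abca1.
Abcb1a: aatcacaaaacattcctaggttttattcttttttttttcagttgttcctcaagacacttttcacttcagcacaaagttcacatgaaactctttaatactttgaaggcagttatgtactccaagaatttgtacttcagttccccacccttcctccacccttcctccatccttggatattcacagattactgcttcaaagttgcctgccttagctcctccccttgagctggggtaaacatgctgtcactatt
Abcb1b: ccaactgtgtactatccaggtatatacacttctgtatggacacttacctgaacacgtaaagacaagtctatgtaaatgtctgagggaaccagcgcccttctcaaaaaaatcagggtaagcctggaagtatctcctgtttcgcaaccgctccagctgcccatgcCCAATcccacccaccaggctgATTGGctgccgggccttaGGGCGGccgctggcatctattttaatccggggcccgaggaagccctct
The Abcb1b stretch holds 2 CCAAT boxes and 1 GC box, and the Abcb1a stretch holds none of the 3 motifs. Of all windows cut to this length, 33.8% held CCAAT, 32.7% GGGCGG and 6.02% CACGTG. A missing match says only that these letters are not in the window.

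The C family, which exports organic anions and conjugates, went both ways. Abcc1, the pump of glutathione conjugates and leukotriene C4, read 607 in the knockout and 541 in the wild type in its bright probe set and 133 against 113 in the other. Both were higher, by 0.18 and 0.24. Abcc4, an exporter of cyclic nucleotides and nucleoside analogues that is also abundant in platelets, read 230.4 against 274 by its only probe set. It was lower by 0.24 on the log2 scale, the lowest value among the 8 transporters and just past the SD between probe sets. With the floor added to every intensity instead, Abcc4 was at -0.2179, inside that SD of 0.2186. The log2 difference of Abcc4 was matched or exceeded in size by 29.4% of detected genes.

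Abcc5, another exporter of cyclic nucleotides, had 5 of its 10 probe sets above the floor. Their log2 differences ran from -0.12 to 0.10, and all were within the SD. The sign of Abcc5 was not settled, since the brightest probe set gave -0.04 and the median of the 5 gave 0.01. The brightest read 135 against 140, and another held 86.0 on both arrays exactly. Abcc3, a pump of glucuronides and bile acids in liver and gut, lay under the floor at 18.2 in the knockout against 14.9 in the wild type. The same 2 values, to the last digit, recur on these arrays, the first in 30 probe sets of the knockout array and the second in 34 of the wild-type array, so they cannot be read as levels of Abcc3. A probe set of Abcc5 under the floor also held such recurring values, held by 48 probe sets of the knockout array and 44 of the wild-type array, itself included.

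**Figure D2:**
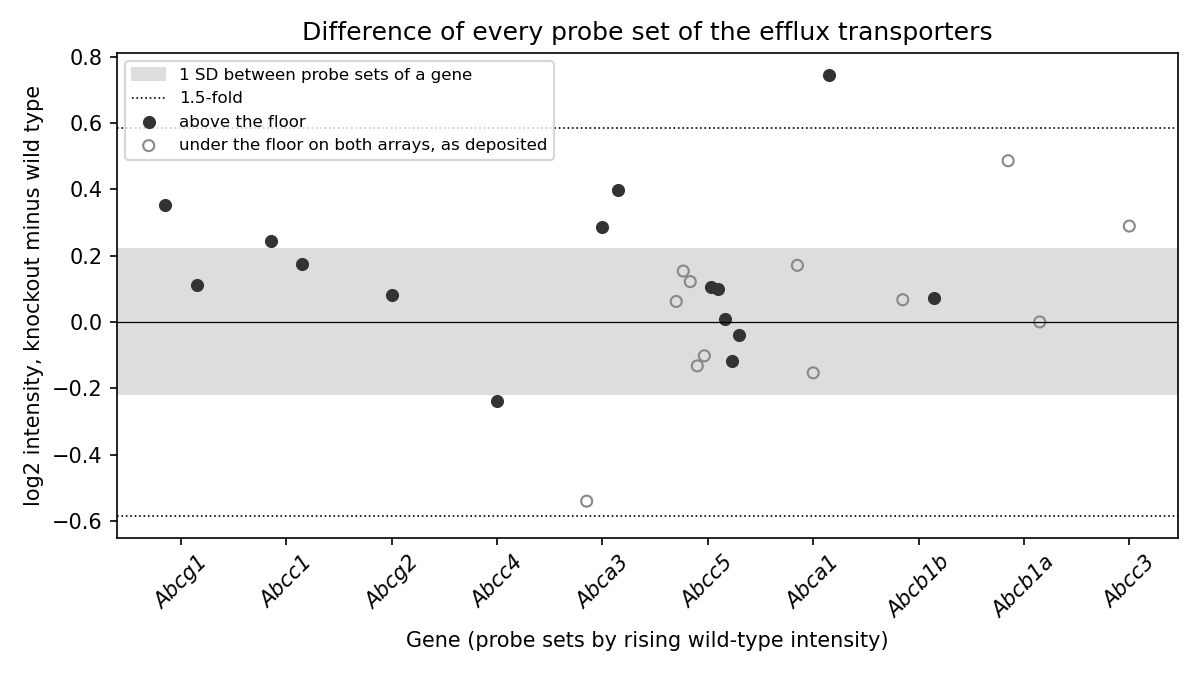
Difference in log2 intensity, knockout minus wild type, for each probe set of the 10 transporters (1 array per genotype, no error bars). Filled points are the 15 probe sets above the floor after centring, open points the 12 under it on both arrays as deposited. The grey band spans 1 SD (0.22) of the log2 differences of probe sets within a gene, and dotted lines mark 1.5-fold. Only the bright Abca1 probe set passes 1.5-fold, at 0.74, and of the 15 filled probe sets 11 were higher, 3 lower and 1 equal as deposited.

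**Figure D3:**
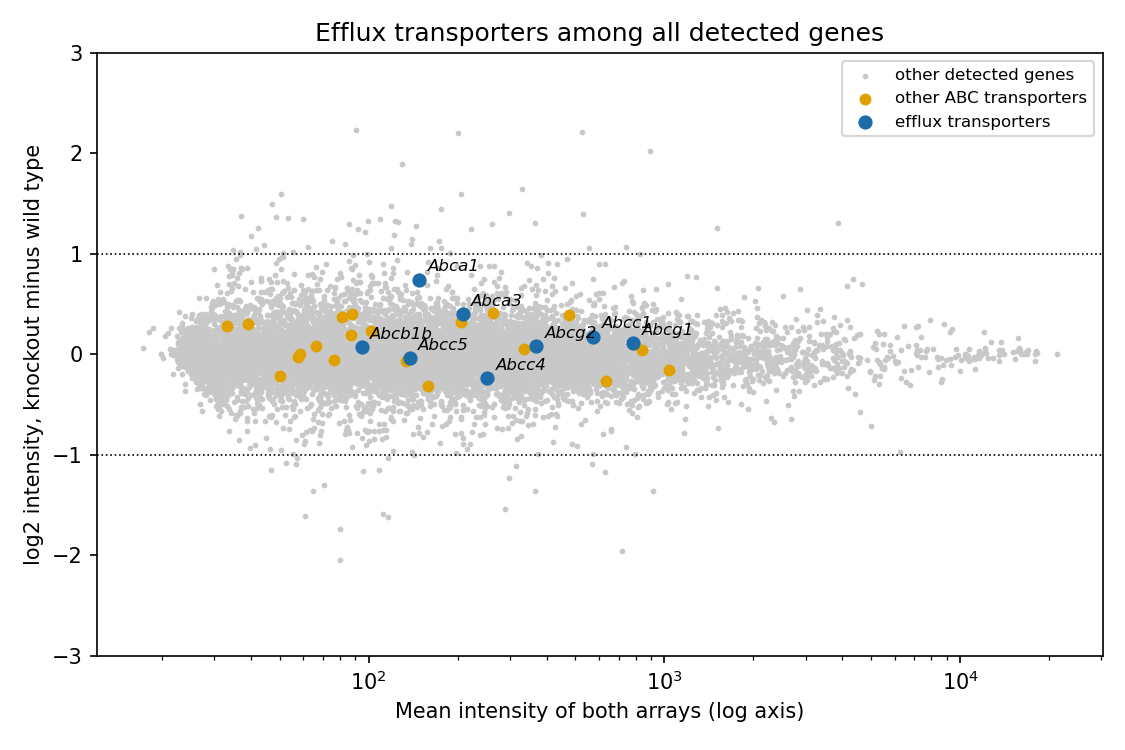
Difference in log2 intensity, knockout minus wild type, against mean intensity (log axis) for all 11440 detected genes in grey, the 20 detected other ABC transporters in yellow and the 8 detected efflux transporters in blue; dotted lines mark 2-fold and 1 gene lies outside the plotted range. The transporters lie inside the cloud of all genes, with Abca1, at 0.74, the highest of them.

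The other ABC transporters gave a like picture. Of 35 on the array 20 were detected, 12 higher and 8 lower, with a median of 0.07 and none past 1.5-fold. The members that differed most were Abca7 (300 against 227, higher by 0.41), a lipid transporter related to Abca1, Abcf3 (99.3 against 75.8, 0.40), a member with no membrane domain, and Tap2 (540 against 414, 0.40), a subunit of the peptide pump of antigen presentation. Differences between the efflux transporters and these genes were not tested, since the arrays give no replicates.

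Genes that act with the pumps were compared as lists. Of the regulators of efflux genes, nuclear receptors and stress-responsive transcription factors, 8 of 14 were detected, 5 higher and 3 lower, with a median of 0.06 and none past 1.5-fold. Ahr, the aryl hydrocarbon receptor and a known inducer of Abcg2, read 94.4 in the knockout and 138 in the wild type, -0.53 on the log2 scale. The retinoid receptor partner Rxra was higher by 0.33 (66.6 against 53.2) and Ppard by 0.24 (53.6 against 45.7). Nr1h3, which encodes the sterol sensor LXR alpha and is known to induce Abca1 and Abcg1, lay under the floor on both arrays, and no level is given for it. Nr1h2, which encodes LXR beta, was also listed but had no probe set assigned to it alone. It was therefore not measured here.

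Genes of sterol traffic and known LXR targets went both ways, 6 higher and 6 lower of 12 detected, with a median of 0.06. Apoe, an acceptor of exported cholesterol and itself an LXR target, read 242 in the knockout and 372 in the wild type. Its log2 difference of -0.61 was the only one of this list past 1.5-fold. Over all detected genes 1.57% were at least 1.5-fold lower. Apoa1 was lower by 0.46 at intensities close to the floor (26.7 against 37.1). Smpdl3a was higher by 0.41 (777 against 589). Abca1 and Apoe, each measured by a single detected probe set, therefore differed in opposite directions. Other known LXR targets also went both ways, with Lpcat3 (0.32) and Srebf1 (0.20) higher and Mylip (-0.15) and Pltp (-0.08) lower. A part of LXR in these differences was not tested.

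All 14 genes of glutathione synthesis and conjugation, which make substrates of Abcc1, were detected, 8 higher and 6 lower, with a median of 0.10. The microsomal transferases Mgst1 (563 against 304, higher by 0.90) and Mgst2 (327 against 215, 0.61) were past 1.5-fold. Over all detected genes 2.28% were at least 1.5-fold higher, and a difference from that share was not tested. Gstm5 differed by -0.53 (201 against 293). Of the uptake carriers, which bring organic ions and nucleosides into cells, 7 of 9 were detected, 3 higher and 4 lower, with a median of -0.06. The nucleoside carrier Slc29a1 (60.7 against 75.4) was lower by 0.30. By their brightest probe sets Slco3a1 (460 against 384) and Slco2b1 (197 against 168) were higher by 0.27 and 0.25. The 3 detected probe sets of Slco3a1 ran from 0.27 to 0.54. Those of Slco2b1, 2 in number, ran from -0.04 to 0.25, so its sign was not settled.

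**Figure D4:**
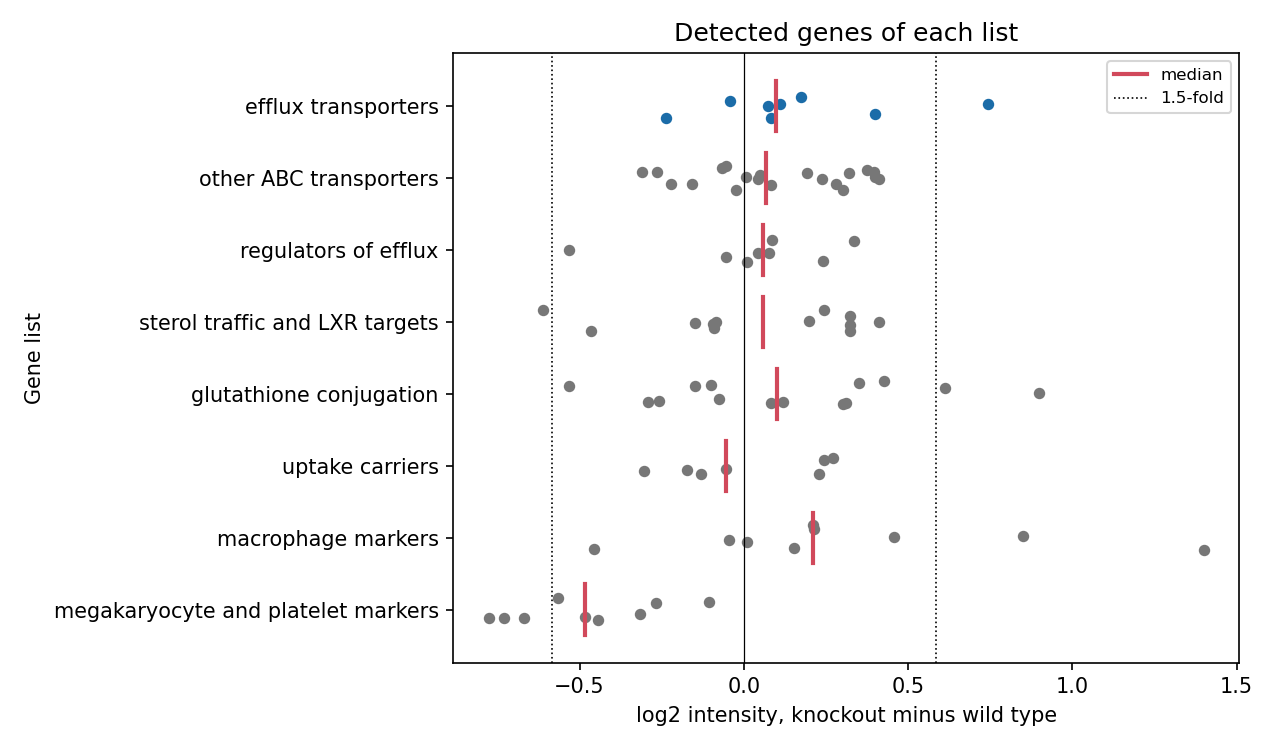
Difference in log2 intensity, knockout minus wild type, of every detected gene of 8 lists (1 point per gene by its brightest probe set, spread vertically for legibility); red bars are medians and dotted lines mark 1.5-fold. The medians of the first 6 lists run from -0.06 to 0.10, while the macrophage markers lie at 0.21 and the megakaryocyte and platelet markers at -0.48.

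Genes listed as markers of other blood cells differed between the samples, and some of these cells express the same transporters. Whether the signal of these genes came from other cells or from the stem cells themselves was not tested. Abca1 is strongly expressed by macrophages. Of the macrophage markers 9 of 13 were detected, 6 higher, 2 lower and 1 equal in the knockout, with a median of 0.21. The summed intensity of all 13 was 1470 in the knockout against 1028 in the wild type. Without Csf1r it was 700.0 against 735, the other way. Ccr2 made the largest part of this smaller sum on both arrays, so each sum leans on its brightest gene. Csf1r read 770 against 294 (1.40) by its brightest probe set, but its 3 detected probe sets ran from 0.35 to 1.40. The sum with Csf1r uses that brightest probe set. C1qc read 45.2 against 24.3 (at least 0.85, as the wild type was under the floor) and C1qa 46.4 against 34.1 (0.46). Ccr2, the brightest of the list in the wild type, read 281 against 388 (-0.45) and was lower in all 4 of its probe sets. Adgre1, Mertk, Marco and Spic, which are known from tissue macrophages, lay under the floor on both arrays. Cd68 (133 against 116), C1qb (34.8 against 31.5), Vcam1 (39.9 against 41.5) and Fcgr1 (28.7 on each) lay above it on both arrays. Cd163 (29.0 against 13.0) was above it in the knockout only. The part of macrophages in the Abca1 difference was not tested.

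Abcc4 is abundant in platelets. All 9 detected megakaryocyte and platelet markers of the 12 on the array were lower in the knockout, with a median of -0.48 and a summed intensity of 1033 against 1512. Pf4 (164 against 283, -0.78), Selp (223 against 371, -0.73) and Vwf (77.5 against 124, -0.67) differed most, and Ppbp, Gp6 and Clec1b lay under the floor on both arrays. Their part in the Abcc4 difference was not tested. Of the 7 detected erythroid markers 2 were higher and 5 lower, with a median of -0.15, and Gata1 (-0.84), Slc4a1 (0.49) and Epor (-0.38) differed most; red cell precursors also use Abcg2.

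The remaining marker lists are given by their medians and leading genes. T and NK cell markers had a median of -0.20 over 4 detected genes, led by Nkg7 (-0.31), Cd3e (-0.22) and Cd8a (-0.18). B cell markers had a median of 0.26 over 8 detected genes, led by Vpreb1 (0.51), Igll1 (0.45) and Ebf1 (at least 0.35). Neutrophil markers had a median of -0.10, led by Mpo (-0.57), Elane (-0.48) and Ctsg (0.26). Endothelial and stromal markers had a median of 0.04, with Pdgfrb at 0.91, Pecam1 at 0.30 and Plvap at -0.16. Stem cell markers had a median of 0.07, led by Flt3 (1.25), Hlf (0.70) and Slamf1 (-0.66). Next in size were Tek (-0.60), Mycn (0.57), Cd34 (0.43) and Gata2 (-0.33). The stem cell list also holds genes better known from progenitors, namely Flt3, Cd34 and Cd48 (0.27). Its median hides both directions, with 9 genes higher, 8 lower and 1 equal as deposited, and is not a measure of stem cell identity. For comparison, the detected transporter differences ran from -0.24 to 0.74.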

How the data were processed

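Total RNA of stem cells was hybridised to 1 Affymetrix array per genotype. The authors deposited linear intensities, 1 for each probe set of an array. The submitters' processing notes name MAS5, with neither version nor role. On both arrays 2535 probe sets (5.63%) held exactly the same value, and 13.8% and 13.9% of the values recurred in other probe sets of the same array, so how the values were made is not settled.

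Intensities were set to each array's median (the 50th percentile) where lower, converted to log2 and centred on the median difference over detected probe sets with 1 gene (a shift of -0.01), with Python 3.11.15, numpy 2.4.6 and pandas 2.3.3. The probe set with the highest mean stood for its gene. Names came from the platform annotation (34945 probe sets with 1 gene, 932 with several, 9160 not listed), updated through the RefSeq table for 34741. Promoters were found for 7 of 10 transporters. Differences of 2-fold and 1.5-fold were counted, with no p-value. Named were all transporters, Ppm1d and the 3 detected genes of each list with the largest difference; a few others were picked with their values in view. The transporters and lists were chosen with earlier results of these data known. The procedure was tested on simulated arrays, with changes past 2-fold planted in bright genes only. That test does not cover differences as small as those of the transporters. Alternatives changed centring, normalization, floor, offset and probe set. The number of arrays limits the precision.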

Additional observations from a re-analysis of the deposited data

How the results depend on the processing

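No centring, quantile and loess normalization, floors at the 25th and 75th percentile, no floor, the floor as an offset, the median over probe sets and leaving out probe sets of the _s_at, _x_at or _a_at kind were tried. Under these 9 settings no transporter passed 2-fold, 1 passed 1.5-fold, and the median ran from 0.09 to 0.15. The set of genes was not the same throughout. Values existed for 10 transporters at the 25th percentile floor and with no floor. At the 75th percentile floor there were 7, without Abcb1b, and otherwise 8. Abcb1b ran from 0.04 to 0.07 over its 8 settings. Abca1 ran from 0.63 to 0.76, Abca3 from 0.34 to 0.42, Abcc4 from -0.25 to -0.22, Abcg1 from 0.10 to 0.23, Abcc1 from 0.16 to 0.23 and Abcg2 from 0.07 to 0.12. Abcc5 ran from -0.05 to 0.01 and thus has no settled sign. The 25th percentile floor and no floor gave values for Abcb1a (0.0057 and 0) and Abcc3 (0.29 in each). Of the 10 places in the intensity order, 3 were kept with the median over all probe sets of a gene, 4 on the knockout array and 7 after leaving out that kind. No paired analysis was possible because each group has 1 array. Signal near the floor and a single array per genotype limit every value.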
